A study of Mus musculus with 43 samples.

Results

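Brain transcript levels of mice labelled Irs1-/- and fed ad libitum (KO_AL) were compared with those of Irs1+/+ mice on the same feeding (WT_AL). The rule took entries with a status of OK and a FPKM (length- and depth-scaled fragment count) value of at least 1 in one of the 2 groups, and 15609 of the 42349 entries in the table met it. Of these, 275 were listed at 0 in WT_AL and 70 at 0 in KO_AL, and the other 15264 were tested. Both groups were at 1 FPKM or more for 13903 of the tested entries, 756 were under 1 in WT_AL and 605 were under 1 in KO_AL. At the limit itself, Mnd1-ps came just inside it with 1.00 FPKM in KO_AL and 0.159 in WT_AL, and Gm28875 just outside it with 0.9997 in WT_AL and 0.519 in KO_AL.

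The series sequenced poly-A-selected RNA from liver, skeletal muscle, brain and white adipose tissue of female mice at 15 months of age, in 43 libraries and 16 groups. The KO is a global, lifelong deletion of Irs1 (insulin receptor substrate 1), so every cell of the body carries it and not only those of the brain. KO_AL brain has 3 labelled libraries and WT_AL brain 2, all from AL mice. The restricted groups used beside them, Irs1+/+ (WT_DR) and Irs1-/- (KO_DR) with 3 libraries each, came from mice kept for 12 months on 30% dietary restriction (DR), also aged 15 months. Which portion of the brain was taken is not given in the sources used here. The table holds 1 pooled FPKM per group with its 95% interval, so no value per mouse was used and the depth per library is unknown. Calls below rest on those intervals and not on a spread between mice computed here.

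IRS1 is one of the adaptor proteins that carry the signal of the insulin and insulin-like growth factor 1 (IGF1) receptors to PI3 kinase, AKT and the FOXO and mTOR branches. In neurons this work is shared with IRS2, and insulin and IGF1 act there on feeding, metabolism and plasticity. The brain itself is a mosaic of regions, each with its own transmitter systems, and some transcripts are made in one small nucleus and almost nowhere else.

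Irs1, the deleted gene, on chromosome 1 from 82233101 to 82291416 (GRCm38), was at 2.47 FPKM in WT_AL, 3.49 in KO_AL, 1.62 in WT_DR and 4.14 in KO_DR. It was thus no lower in the groups labelled KO, the log2 difference in the AL mice being 0.50 (SE 0.66). In the DR mice it was 1.35 (SE 0.40), which was called higher in KO_DR at an FDR of 10%. Directions below are therefore those of the labelled groups, and KO_AL stands for the group labelled KO_AL throughout. The brain label itself was matched by its markers: all 17 pan-neuronal genes on the list were tested, synaptophysin (Syp) was at 531 FPKM in WT_AL and 871 in KO_AL, and no adipocyte marker reached 1 FPKM in either group. The median SD, as read from the interval, was 45.7% of the FPKM in WT_AL and 40.1% in KO_AL. The median log2 difference (KO_AL minus WT_AL) of all tested entries was 0.13, and 41.0% of them were lower in KO_AL. Each difference is a log2 ratio of group FPKM without a pseudocount, and entries are called here at a false discovery rate (FDR) of 10% in a Wald test (two-sided, adjusted by the Benjamini-Hochberg procedure over all 15264 entries). With 2 and 3 libraries the normal reference of this test is generous, so no p-values are given for single genes. For these, FPKM values or log2 differences are given, with an SE for only some of them.

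Calls were few. KO_AL had 26 entries called higher (0.17% of those tested) and 5 called lower (0.0328%). A further count took each SD divided by the square root of the number of libraries, which is right if the deposited interval describes single libraries rather than the group value. With this smaller SE, 162 entries were called higher (1.06%) and 53 lower (0.347%), and 144 of these 215 were protein-coding genes, 102 higher and 42 lower. Of the 31 entries called without it, 5 were protein-coding genes of the nuclear genome, among them the dopamine transporter gene Slc6a3, the nicotinic receptor gene Chrna6 and the transcription factor gene Junb. Another 6 came from the mitochondrial genome, 2 were copies of mitochondrial sequence on chromosome 1, and 10 lay in the snoRNA cluster of chromosome 7. Against a t distribution with 3 degrees of freedom no entry was called, while 37 were higher and 10 lower at an unadjusted p under 0.05. With each SD, as a percent of FPKM, raised to at least the median of the entries tested, 4 of the 31 were called, namely Slc6a3, Rny1, Rny3 and Lrrc17.

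**Figure D1:**
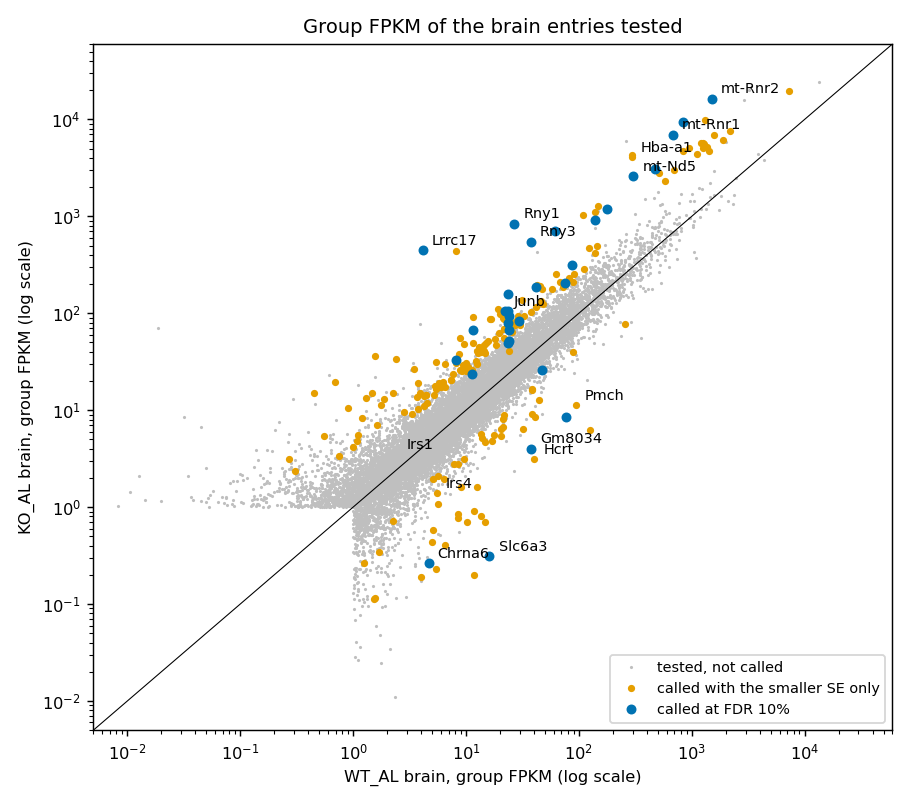
Group FPKM of every tested brain entry in WT_AL (horizontal axis, log scale) and KO_AL (vertical axis, log scale), with the line of equal values. Blue points were called at an FDR of 10% (26 above and 5 below the line), orange points with the smaller SE only, and Slc6a3 and Chrna6 lie far below the line while Lrrc17, Rny1 and the mitochondrial rRNAs lie far above it.

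The 2 protein-coding genes called lower in KO_AL, Slc6a3 and Chrna6, are genes of midbrain dopamine neurons. Slc6a3, on chromosome 13 from 73536747 to 73578672, encodes the transporter that returns dopamine to the nerve ending. Its FPKM was 16.1 in WT_AL (interval 3.61 to 28.7) and 0.312 in KO_AL (0 to 0.676), with 0.104 in WT_DR and 7.34 in KO_DR. WT_AL and KO_DR were high and the other 2 groups near 0, and the intervals of WT_AL and KO_AL did not overlap. The level in KO_AL was 51.7-fold lower, a log2 difference of -5.69 (SE 1.01). Chrna6, the alpha-6 subunit of nicotinic receptors on dopamine neurons, was at 4.66 FPKM in WT_AL (0.701 to 8.62), 0.264 in KO_AL (0 to 0.602), 0.0983 in WT_DR and 1.70 in KO_DR. The same 2 groups were high as for Slc6a3, and the difference was -4.14 (SE 1.11), a call lost at an FDR of 5% and with no filter on low values.

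Other dopamine genes were also lower in KO_AL and WT_DR but were not among the 31 called entries. Slc18a2, which loads monoamines into vesicles, was at 8.42 FPKM in WT_AL, 0.763 in KO_AL, 0.625 in WT_DR and 3.62 in KO_DR (log2 difference -3.46, SE 0.96). Ret, a receptor for glial-derived growth factors, was at 8.999, 1.63, 1.30 and 5.80 FPKM in the same order of groups. Ddc, which makes dopamine and serotonin from their precursors, was at 40.9, 8.44, 6.93 and 30.3 FPKM. Th, the rate-limiting enzyme of dopamine synthesis, was at 20.6, 6.39, 2.13 and 12.1 FPKM. In each of these genes WT_AL and KO_DR stood above KO_AL and WT_DR. Of the 17 genes on the midbrain dopamine list, 14 were tested, 12 of them were lower in KO_AL, and their median log2 difference was -1.96 against 0.13 over all entries. Both called members and the 4 others just described were called lower with the smaller SE (6 of 14, against 0.347% of all entries), and no member was called higher. Slc18a2 was also called with a pseudocount of 0.1 or 1, after centring on the median and among entries of at least 5 FPKM. The members that were higher were Drd2, the D2 dopamine receptor that striatal neurons also carry, at 4.79 FPKM in WT_AL and 12.5 in KO_AL, and the early gene Nr4a2, at 7.54 and 12.8. Of the remaining 3 list members, Foxa1 and Foxa2 were under 1 FPKM in both groups and Slc10a4 appears only in an entry that joins several genes.

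**Figure D2:**
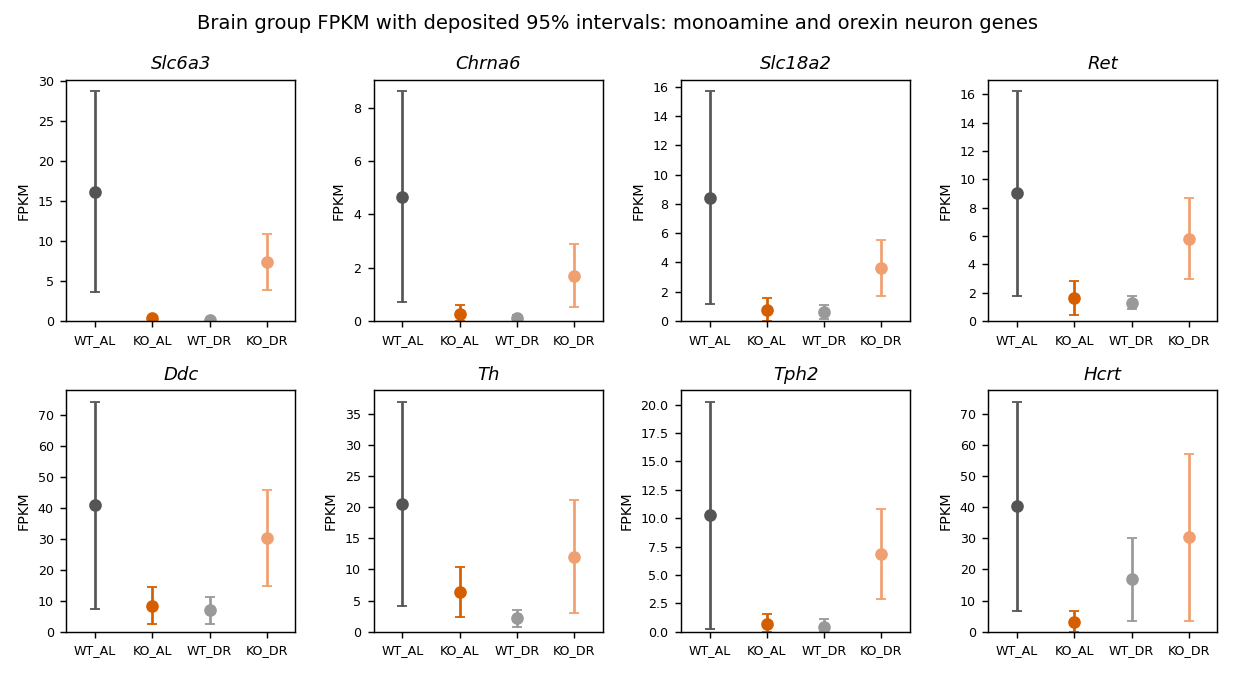
Group FPKM (vertical axes, linear, from 0) of Slc6a3, Chrna6, Slc18a2, Ret, Ddc, Th, Tph2 and Hcrt in the 4 brain groups, with points for the pooled value and bars for the deposited 95% interval. In the first 7 genes WT_AL and KO_DR are high and KO_AL and WT_DR low, and Hcrt is lowest in KO_AL.

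Some genes of serotonin and hindbrain neurons were lower as well. Tph2, the enzyme that makes serotonin in the raphe nuclei, was at 10.2 FPKM in WT_AL, 0.706 in KO_AL, 0.449 in WT_DR and 6.86 in KO_DR (log2 difference -3.86, SE 1.14). Slc6a4, the serotonin transporter, was at 8.70 FPKM in WT_AL and 0.559 in KO_AL, with a wide SE of 2.60 on its log2 difference of -3.96. Slc6a5, the glycine transporter of brainstem and spinal neurons, went from 8.49 FPKM in WT_AL to 0.854 in KO_AL, with 0.457 in WT_DR and 9.99 in KO_DR. Rln3, a neuropeptide of the brainstem, was at 11.9, 0.199, 0.114 and 6.73 FPKM in the order WT_AL, KO_AL, WT_DR and KO_DR. Slc6a5 and Rln3 were chosen after their values were seen, without a list of hindbrain genes beside them. Of other genes looked up in the same way, Glra1 was lower, at 9.19 FPKM in WT_AL and 2.38 in KO_AL. Hoxb5 (1.33 and 1.43) and the other glycine transporter gene Slc6a9 (44.5 and 42.2) differed little. Of 9 tested genes of serotonin, noradrenaline and acetylcholine neurons 5 were lower and 4 higher, with a median of -0.36. Tph2 alone was called with the smaller SE (1 of 9, against 0.347% of all entries called lower). The cholinergic genes Slc18a3, at 3.81 FPKM in WT_AL and 11.1 in KO_AL, and Chat, at 1.10 and 2.19, were among the higher ones.

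Among hypothalamic genes, 2 peptides of the lateral area were called lower with the smaller SE. Hcrt, which encodes the wake-promoting orexins, was at 40.3 FPKM in WT_AL, 3.10 in KO_AL, 16.8 in WT_DR and 30.3 in KO_DR (log2 difference -3.70, SE 1.01). Pmch, the precursor of melanin-concentrating hormone, was at 93.3, 11.3, 39.8 and 52.2 FPKM. KO_AL was the lowest group for both, unlike the dopamine genes, for which WT_DR was lower still. They were the only 2 of the 21 tested hypothalamic and feeding genes to be so called (against 0.347% of all entries), and 13 of the 21 were lower, with a median of -0.45. Npy, the feeding peptide of the arcuate nucleus and of cortical interneurons, was at 21.3 FPKM in WT_AL and 42.5 in KO_AL, and Pomc at 7.26 and 12.3. Of 4 tested genes of the pituitary list 3 were lower and 1, Pomc, was higher, with a median of -2.01. The pituitary hormones Gh (3.97 FPKM in WT_AL and 0.189 in KO_AL) and Prl (11.7 and 0.901) were called lower with the smaller SE (2 of 4, against 0.347% of all entries). Both were listed at 0 in KO_DR.

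Genes of the cortex and striatum had the opposite sign. None of 11 tested genes of cortical glutamate neurons and none of 16 of striatal projection neurons was lower in KO_AL, with medians of 1.05 and 0.89. Fezf2, a factor of deep-layer projection neurons, was at 3.79 FPKM in WT_AL, 19.0 in KO_AL, 14.6 in WT_DR and 7.97 in KO_DR, a log2 difference of 2.33 (SE 0.73). Tbr1, a factor of layer 6 neurons, was at 6.45, 29.8, 22.1 and 19.5 FPKM. WT_AL was the lowest group for both genes, and each was called higher with the smaller SE, as no other member of the cortical list was (2 of 11, against 1.06% of all entries). The summed FPKM of the cortical list was 709.5 in WT_AL and 1481 in KO_AL, that of the striatal list 646.8 and 1099, and that of the midbrain dopamine list 161.4 and 72.02. Of 8 tested olfactory bulb genes 5 were lower and 3 higher, with a median of -0.53. Sp8 (0.270 FPKM in WT_AL and 3.15 in KO_AL) and Cdhr1 (1.63 and 7.06) were called higher with the smaller SE (2 of 8, against 1.06% of all entries). Th, which the olfactory bulb list shares with the dopamine list, was called lower (1 of 8, against 0.347%). Lists of other regions had medians of -0.10 for 12 genes of the cerebellum, -0.60 for 10 of the thalamus and habenula and -0.80 for 5 of the hippocampus. Which portion of the brain was taken is not given. In bulk tissue, fewer cells of a type and less RNA per cell cannot be told apart, and the part of these regional markers in the other differences was not tested.

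**Figure D3:**
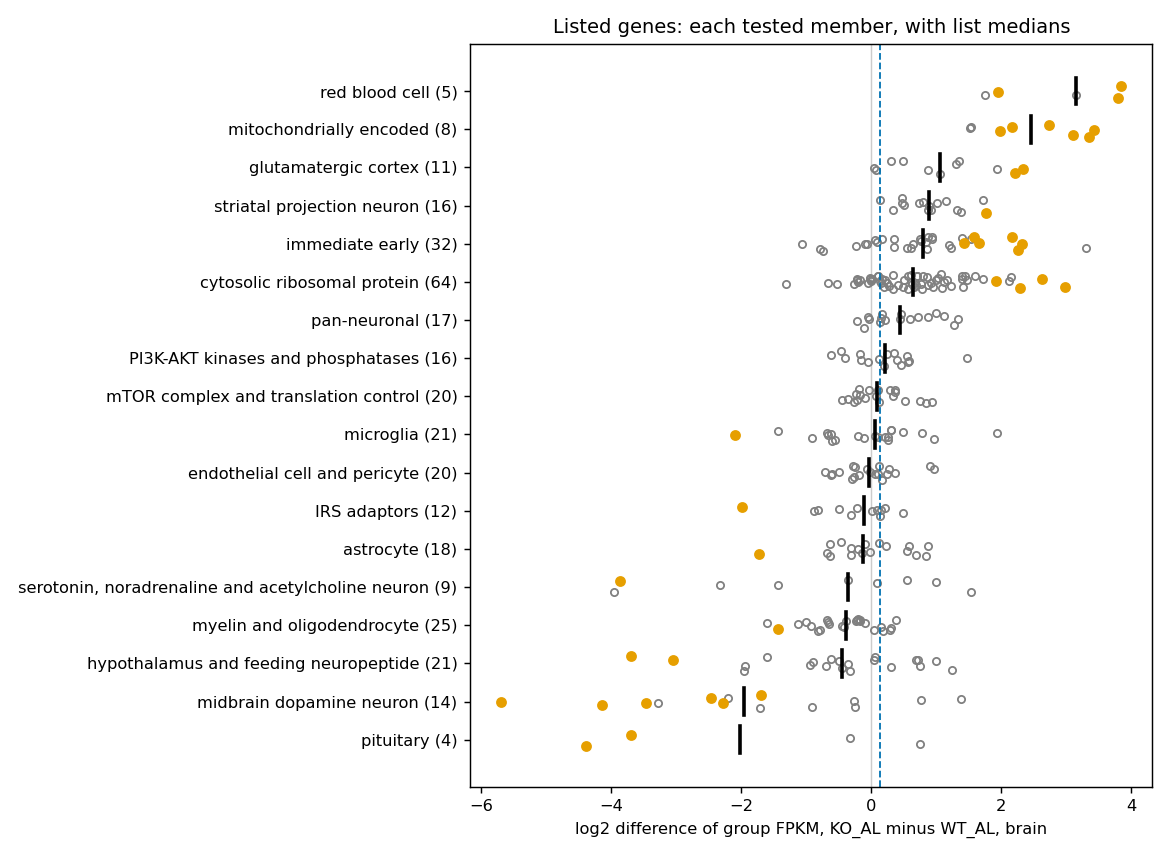
Log2 difference of group FPKM, KO_AL minus WT_AL (horizontal axis), for each tested member of 18 gene lists, with the number tested in brackets. Filled orange points were called with the smaller SE, open points were not, black bars are list medians and the dashed line is the median of all entries at 0.13. The medians of pituitary and midbrain dopamine genes lie to the left of the dashed line. Those of red blood cell, mitochondrial, cortical and striatal genes lie to the right.

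Immediate early genes, which neurons switch on within minutes of activity, were mostly higher. Of 32 tested, 26 were higher in KO_AL and 6 lower, with a median of 0.80. Junb, an AP-1 transcription factor on chromosome 8 from 84976909 to 84978748, was at 22.1 FPKM in WT_AL (7.35 to 36.9), 105.6 in KO_AL (58.6 to 153), 50.2 in WT_DR and 42.8 in KO_DR. WT_AL was the lowest and KO_AL the highest of the 4, and their intervals did not overlap. The level was 4.77-fold higher, a log2 difference of 2.25 (SE 0.58), a call that was lost at an FDR of 5% and after centring on the median. Nr4a1, an orphan nuclear receptor, was at 9.55, 47.9, 26.3 and 17.9 FPKM in WT_AL, KO_AL, WT_DR and KO_DR, and its intervals in the AL groups did not overlap either (log2 difference 2.33, SE 0.65). Npas4, a factor induced by depolarisation, was at 1.09, 4.86, 5.67 and 3.08 FPKM, and Egr4 at 7.60, 23.9, 18.4 and 19.7. Egr1 was at 18.1 FPKM in WT_AL and 54.4 in KO_AL, and Arc, which acts at the synapse, at 24.6 and 66.3. These 6 genes were called higher with the smaller SE (6 of 32, against 1.06% of all entries) and no member was called lower. Fos itself was at 11.8 and 18.1 FPKM, with a log2 difference of 0.61 (SE 0.73). Jun was at 49.0 FPKM in WT_AL and 28.3 in KO_AL, and Bdnf, a growth factor that activity induces, at 8.24 and 4.94. Jund, the most abundant member, was at 83.8 and 78.8.

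The start sites of these genes are where activity-dependent factors such as CREB are known to bind. The 250 bases before the RefSeq start (GRCm38.p6, written along the gene's own strand, 5′ to 3′) of Junb at chr8:84978749-84978998 (minus strand), Nr4a1 at chr15:101266596-101266845 (plus strand), Npas4 at chr19:4989972-4990221 (minus strand) and Egr4 at chr6:85513590-85513839 (minus strand) are shown because these 4 members were called higher, Junb at the FDR of 10% and the others with the smaller SE. Egr1 and Arc, also called with the smaller SE, were not matched to a window. Capitals mark the letters CGTCA on either strand (CGTCA or TGACG), the half-site of the cAMP response element.
Junb: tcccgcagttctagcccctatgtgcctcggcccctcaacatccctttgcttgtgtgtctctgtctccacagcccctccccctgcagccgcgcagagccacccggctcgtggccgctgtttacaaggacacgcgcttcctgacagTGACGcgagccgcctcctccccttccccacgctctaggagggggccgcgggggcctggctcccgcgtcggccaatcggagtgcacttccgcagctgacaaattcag
Nr4a1: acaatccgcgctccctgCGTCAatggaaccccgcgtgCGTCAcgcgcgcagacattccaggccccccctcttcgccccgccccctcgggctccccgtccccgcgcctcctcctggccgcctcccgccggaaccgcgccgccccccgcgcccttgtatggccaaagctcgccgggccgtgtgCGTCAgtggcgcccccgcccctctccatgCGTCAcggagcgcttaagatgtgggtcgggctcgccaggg
Npas4: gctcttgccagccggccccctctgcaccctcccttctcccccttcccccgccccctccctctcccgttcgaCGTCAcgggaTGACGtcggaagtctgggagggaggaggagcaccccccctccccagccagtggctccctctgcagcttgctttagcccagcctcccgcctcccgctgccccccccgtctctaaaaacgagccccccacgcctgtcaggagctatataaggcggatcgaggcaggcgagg
Egr4: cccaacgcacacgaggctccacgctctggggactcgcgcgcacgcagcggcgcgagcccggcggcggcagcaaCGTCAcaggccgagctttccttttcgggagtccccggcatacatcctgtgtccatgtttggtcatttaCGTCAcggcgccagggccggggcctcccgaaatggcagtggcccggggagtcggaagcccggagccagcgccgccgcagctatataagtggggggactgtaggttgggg
Nr4a1 held 4 such half-sites, Npas4 and Egr4 2 each and Junb 1. Of 32851 promoter windows of this length in the RefSeq table, 17.8% held at least 1, 3.9% at least 2 and 0.137% at least 4. RefSeq windows were matched for 25 of the 32 immediate early genes, some with several starts, and 20 of their 37 windows held at least 1 half-site. Members that were not higher in KO_AL could also hold several: Nr4a3, with a log2 difference of -0.23, had 4. These matches describe the letters in the windows and not binding.

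Transcripts of the mitochondrial genome were higher in KO_AL. All 29 tested mitochondrial entries had a positive log2 difference, with a median of 2.17. Of these, 6 were called higher (against 0.17% of all entries), and 20 with the smaller SE (against 1.06%). Among the 6, the SD was 0.77% of FPKM for mt-Th in KO_AL and 0.97% for the joined mt-Tl2 and mt-Ts2 in WT_AL. None of the 6 was called with each SD raised to at least the median. The 16S rRNA mt-Rnr2 was at 1514 FPKM in WT_AL, 16275 in KO_AL, 10589 in WT_DR and 2518 in KO_DR (log2 difference 3.43, SE 0.89). The 12S rRNA mt-Rnr1 was at 678.0, 6936, 7624 and 939.8 FPKM. Among the complex I subunits, mt-Nd5 was at 303.9, 2608, 2049 and 437.5 FPKM and mt-Nd3 at 177.8, 1187, 2565 and 154.4. KO_AL and WT_DR were high and WT_AL and KO_DR low in each of these 4. Mitochondrial entries made up 7.88% of the summed FPKM in WT_AL, 28.2% in KO_AL, 33.6% in WT_DR and 12.1% in KO_DR. Gm28438 and Gm10925, annotated on chromosome 1 as unprocessed pseudogenes, were also called higher, at 140.0 and 470.3 FPKM in WT_AL and 908.0 and 3090 in KO_AL. The calls of mt-Rnr2 and Gm28438 were lost at an FDR of 5% and after centring. Gm28438 and Gm10925 lie in a copy of mitochondrial sequence in the nuclear genome, so the division of reads between these pseudogenes and the mitochondrial genes is uncertain. The 77 tested subunits of the respiratory chain encoded in the nucleus had a median of 0.39. Of them 2, Cox7a2 and Ndufb4, were called higher with the smaller SE (2 of 77, against 1.06% of all entries). Cox7a2, of cytochrome c oxidase, was at 21.5 FPKM in WT_AL and 87.9 in KO_AL.

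**Figure D4:**
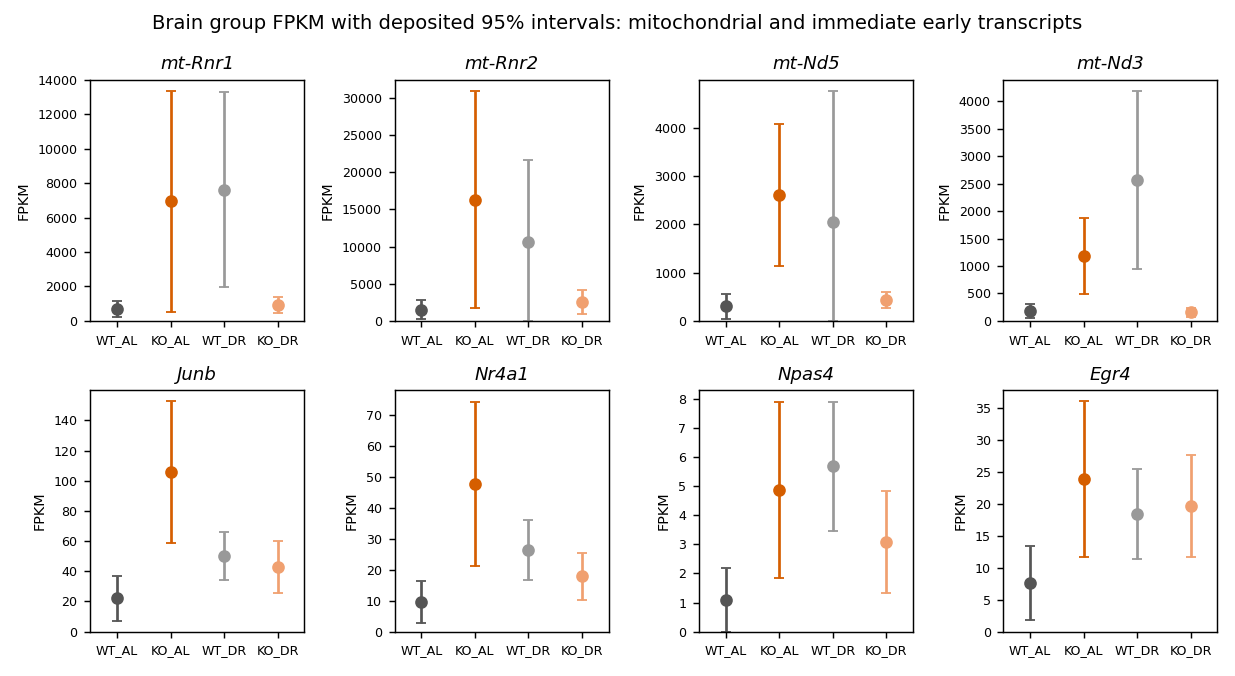
Group FPKM (vertical axes, linear, from 0) of 4 mitochondrial transcripts (mt-Rnr1, mt-Rnr2, mt-Nd5 and mt-Nd3) and 4 immediate early genes (Junb, Nr4a1, Npas4 and Egr4) in the 4 brain groups, with bars for the deposited 95% interval. KO_AL and WT_DR are high for the mitochondrial transcripts, and WT_AL is the lowest group for the early genes.

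Small non-coding RNAs made up much of the remainder of the called entries. The Y RNAs, which bind the Ro60 protein, were 2 of them. Rny1, of 112 bases at chr6:47788069-47788180 on the minus strand, and Rny3, of 102 bases at chr6:47781624-47781725 on the plus strand, are shown here from GENCODE M21 (GRCm38), all in lower case, because they are short, unadenylated RNAs in poly-A-selected libraries.
Rny1: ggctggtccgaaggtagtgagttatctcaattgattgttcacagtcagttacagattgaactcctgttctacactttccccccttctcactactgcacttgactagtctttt
Rny3: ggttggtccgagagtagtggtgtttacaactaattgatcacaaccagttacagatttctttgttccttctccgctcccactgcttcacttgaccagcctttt
Rny1 was at 26.8 FPKM in WT_AL (21.4 to 32.1), 835.8 in KO_AL (0 to 1705), 191.0 in WT_DR and 456.7 in KO_DR. It was lowest in WT_AL, and its KO_AL interval took in the WT_AL value (log2 difference 4.97, SE 0.76). Rny3 was at 37.6 FPKM in WT_AL (31.7 to 43.6), 547.1 in KO_AL (501 to 593), 109.9 in WT_DR and 81.5 in KO_DR, and here the AL intervals did not overlap (log2 difference 3.86, SE 0.13).

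The largest block of called entries came from the cluster of C/D box snoRNAs inside Snhg14, the long host transcript of an imprinted region. Of 27 entries tested in this part of chromosome 7, 24 were higher in KO_AL, with a median of 1.05, and 10 were called, 9 higher and 1 lower. Of the called entries, 8 are annotated copies of 79 bases. Gm24570 at chr7:59572707-59572785, Gm26284 at chr7:59589548-59589626 and Gm23560 at chr7:59617612-59617690, all on the minus strand, are shown from GENCODE M21 because their sequences bear on how the calls can be read. Capitals mark the longest stretch that is complementary to a transcript of the serotonin receptor gene Htr2c, 18 bases found in 2 of its 7 annotated transcripts.
Gm24570: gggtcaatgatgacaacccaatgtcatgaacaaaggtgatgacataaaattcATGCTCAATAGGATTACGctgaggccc
Gm26284: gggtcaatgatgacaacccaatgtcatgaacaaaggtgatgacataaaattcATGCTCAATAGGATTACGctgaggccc
Gm23560: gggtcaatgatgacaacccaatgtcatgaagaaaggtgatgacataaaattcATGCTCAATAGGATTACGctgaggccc
Gm24570 and Gm26284 have the same sequence and Gm23560 differs from them at 1 base. Yet Gm24570 was called higher, at 23.7 FPKM in WT_AL and 157.6 in KO_AL (log2 difference 2.73, SE 0.12), and Gm26284 was called lower, at 47.4 and 26.3 (log2 difference -0.85, SE 0.12). In all 23 entries share this sequence. Their values moved in steps: the 8 above 0 in WT_AL were whole multiples of 23.7 FPKM, of 1 or 2 steps, and 19 of the 22 above 0 in KO_AL were whole multiples of 26.3 FPKM, from 1 to 6 steps, each to within 0.01 of a step. Over the 23 entries the FPKM summed to 213.4 in WT_AL, 1286 in KO_AL, 271.9 in WT_DR and 206.3 in KO_DR. The sequence of Gm23560 is shared by 33 entries, which summed to 95.9, 1295, 884.9 and 258.6. Both families were thus highest in KO_AL as sums, while single copies cannot be told apart by sequence. The SD of the called 79-base entries was 2.27% to 8.18% of their FPKM, against medians of 40.1% and 45.7% over all entries.

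**Figure D5:**
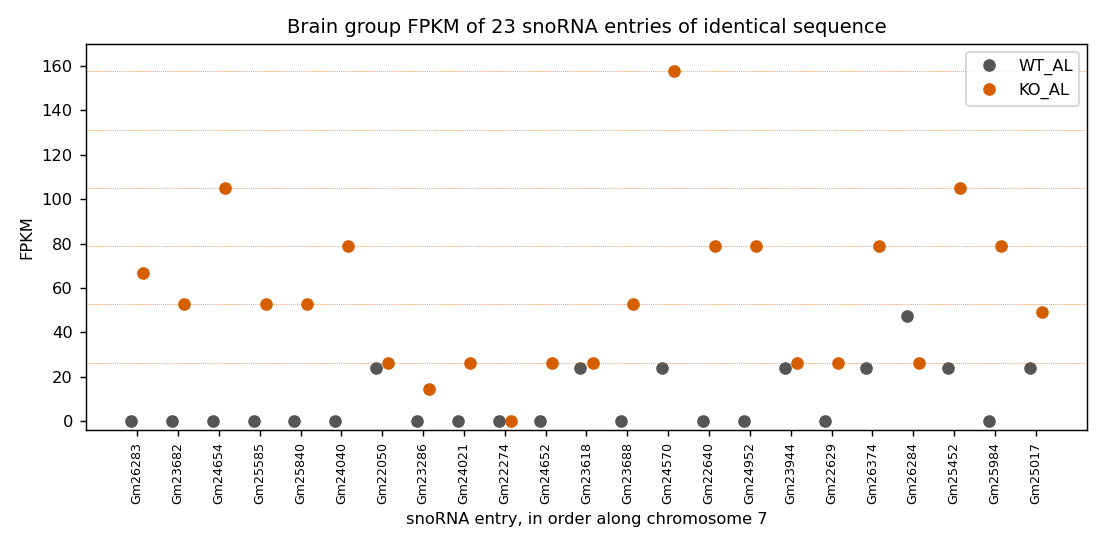
Group FPKM (vertical axis, linear) of the 23 entries with the sequence of Gm24570, in their order along chromosome 7, in WT_AL (grey) and KO_AL (orange). Dotted lines are whole multiples of 26.3 FPKM, most KO_AL points lie on one of them, and the WT_AL points lie at 0 or at 1 or 2 steps of their own.

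Several of the other called entries spanned more than one annotated gene or were non-coding. The entry named Lrrc17, a leucine-rich repeat protein gene, was at 4.13 FPKM in WT_AL, 447.9 in KO_AL, 14.5 in WT_DR and 15.3 in KO_DR, and it was high in KO_AL only, with a log2 difference of 6.76 (SE 0.88). Its locus on chromosome 5 runs from 21483847 to 21645605, which holds 4 annotated genes. Fbxl13 has an entry of its own over the same locus, at 0.263 FPKM in WT_AL and 0.0499 in KO_AL. The lincRNA Gm26917 was at 61.9 FPKM in WT_AL and 708.8 in KO_AL, with 201.7 in WT_DR and 274.2 in KO_DR. The entry named Snord82, whose locus also spans the nucleolin gene Ncl, was at 41.6 FPKM in WT_AL, 185.9 in KO_AL, 35.1 in WT_DR and 190.1 in KO_DR. It was thus high in both KO-labelled groups, with log2 differences of 2.16 (SE 0.50) in the AL mice and 2.44 (SE 0.29) in the DR mice. Gm8034, a processed pseudogene of 132 bases, was the called entry with the largest Wald statistic on the lower side, at 37.6 FPKM in WT_AL and 3.98 in KO_AL. Also lower was Gm22352, at 76.6 and 8.52 FPKM, whose locus spans Slc24a5 and Myef2. The other nuclear entries called higher were the joined snoRNA host gene Snhg12, the snRNA Gm25541, at 8.12 FPKM in WT_AL and 32.9 in KO_AL, and Gm3625, at 11.3 and 23.5.

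No gene of the insulin and IGF pathway was among the 31 called entries. Among the ligands, Igf2 was at 82.1 FPKM in WT_AL and 76.9 in KO_AL, Igf1 at 0.400 and 1.51, and Ins2, one of the insulin genes, was listed at 0 in both. The insulin receptor Insr was at 6.56 FPKM in WT_AL and 6.69 in KO_AL, the IGF1 receptor Igf1r at 4.86 and 4.26, and Igf2r, which clears IGF2, at 2.81 and 2.49. None of these differences exceeded its SE except that of Igf1, at 1.92 (SE 1.78). Irs2, the adaptor that works beside IRS1, was at 25.4 FPKM in WT_AL, 28.0 in KO_AL, 18.5 in WT_DR and 31.6 in KO_DR (log2 difference 0.14, SE 0.63). Irs4, the adaptor most abundant in the hypothalamus, was at 5.51, 1.38, 2.11 and 3.73 FPKM, a log2 difference of -1.99 (SE 0.93). It was the 1 of 12 adaptor genes called with the smaller SE (against 0.347% of all entries called lower). The others ranged from Gab1, at 11.2 FPKM in WT_AL and 6.09 in KO_AL, to Grb2, at 72.01 and 83.6, apart from Irs1 itself. Igfbp6, which binds IGF2 with preference, was at 16.3 FPKM in WT_AL, 86.7 in KO_AL, 34.85 in WT_DR and 22.1 in KO_DR. Its AL intervals did not overlap, and its log2 difference was 2.41 (SE 0.66). It did not pass the FDR of 10%, but was called with the smaller SE, with a pseudocount of 1 and among entries of at least 5 FPKM. No gene of the PI3K-AKT list (16 tested, median 0.21), of the FOXO and GSK3 list (6 tested, median 0.52) or of the mTOR and translation list (20 tested, median 0.08) was called with either SE.

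Genes of red blood cells and of the ribosome mostly had higher values in KO_AL. All 5 tested genes of the red blood cell list had a positive log2 difference, with a median of 3.15. The alpha globin gene Hba-a1 was at 295.0 FPKM in WT_AL and 4085 in KO_AL (0 to 9456), with 264.5 in WT_DR and 1179 in KO_DR, and Alas2, the first enzyme of haem synthesis in red cells, at 3.42 and 30.4. Hba-a1, its near-identical copy Hba-a2 and the beta globin Hbb-bt were called with the smaller SE (3 of 5, against 1.06% of all entries) and not without it. The summed FPKM of the whole list was 1032 in WT_AL, 9908 in KO_AL, 970.9 in WT_DR and 3476 in KO_DR. Among its defining membrane proteins, Slc4a1 was at 0.00920 FPKM in WT_AL and 0.584 in KO_AL, and Rhag was listed at 0 in both. The part of blood left in the tissue in the other differences was not tested. Of 64 tested genes of cytosolic ribosomal proteins 52 were higher and 12 lower, with a median of 0.65. Rpl37, Rpl37a, Rps29 and Rps26 were called higher with the smaller SE (4 of 64, against 1.06% of all entries). Rpl37 was at 11.6 FPKM in WT_AL, 91.7 in KO_AL, 22.8 in WT_DR and 15.6 in KO_DR, and Rpl37a at 8.93, 55.2, 42.1 and 13.2. Rpl31 was at 16.7 and 30.5 FPKM in the AL groups, with an SE of 2.26 on a log2 difference of 0.87. Many ribosomal protein genes have processed copies, so the division of their reads is uncertain.

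Myelin, astrocyte, microglia and endothelial lists had medians between -0.39 and 0.06. Of 25 tested genes of myelin and oligodendrocytes 19 were lower, with a median of -0.39. Ugt8a, which makes the myelin lipid galactocerebroside, was the only one called with the smaller SE (1 of 25, against 0.347% of all entries called lower). It was at 14.0 FPKM in WT_AL, 5.199 in KO_AL, 6.99 in WT_DR and 5.87 in KO_DR. Myelin basic protein, Mbp, was at 3877 FPKM in WT_AL and 4391 in KO_AL. The median was -0.12 for 18 astrocyte genes, 0.06 for 21 microglia genes and -0.04 for 20 endothelial genes. Sparc, a matrix-binding protein of astrocytes and vessels, was at 255.7 FPKM in WT_AL, 77.3 in KO_AL, 105.8 in WT_DR and 174.3 in KO_DR, and Spp1 (osteopontin) at 38.6, 9.05, 5.09 and 16.3. Both were called lower with the smaller SE (against 0.347% of all entries), Sparc alone of the 18 astrocyte genes and Spp1 alone of the 21 microglia genes. Arhgap24, a regulator of vessel growth, was also called lower with it, at 9.65 FPKM in WT_AL and 3.11 in KO_AL. Cd83, an immune cell surface protein, was at 21.5 FPKM in WT_AL (8.12 to 34.8) and 6.66 in KO_AL (4.96 to 8.36), a log2 difference of -1.69 (SE 0.48). Of 18 tested monoamine receptor genes 14 were higher and 4 lower. The beta-1 adrenergic receptor Adrb1, at 10.3 FPKM in WT_AL and 27.7 in KO_AL, was the only one called with the smaller SE (against 1.06% of all entries called higher). Of 29 tested adenylate cyclase and cAMP genes 17 were higher and 12 lower, with a median of 0.31. The adenylate cyclase Adcy2, at 12.3 and 31.9, and the membrane protein Palm, at 90.6 and 254.6, were called higher with the smaller SE (2 of 29). Adcy7, at 2.26 and 0.721, was called lower (1 of 29, against 0.347% of all entries).

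Some further genes were called with the smaller SE and were not among the 31 called entries. Akap12, a scaffold for protein kinase A, was at 17.0 FPKM in WT_AL (5.49 to 28.5), 4.81 in KO_AL (2.44 to 7.18), 6.81 in WT_DR and 12.2 in KO_DR. Mrap2, which assists melanocortin receptors, was at 20.6 FPKM in WT_AL and 5.42 in KO_AL, and Crls1, the enzyme that makes the mitochondrial lipid cardiolipin, at 31.9 and 6.35. Gabrq, the theta subunit of the GABA-A receptor, was at 5.64 and 1.07 FPKM, and Tanc1, a scaffold of the synapse, at 17.7 and 5.54. Higher in KO_AL were Lgals1 (galectin-1), at 0.689 FPKM in WT_AL, 19.6 in KO_AL, 7.44 in WT_DR and 2.94 in KO_DR, and Camk4, a calcium-dependent kinase of neurons, at 4.21, 14.0, 13.1 and 8.48. The first 5 of these 7 genes were lower in KO_AL and the other two higher.

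The tested genes of skeletal muscle other than Pvalb had low values in WT_AL and were higher in KO_AL. All 8 tested genes of the skeletal muscle list had a positive log2 difference. The summed FPKM of the whole list, tested or not, was 59.6 in WT_AL, 103.3 in KO_AL, 29.3 in WT_DR and 110.9 in KO_DR. Of these sums Pvalb, a calcium buffer that interneurons also make, held 56.5, 58.0, 18.5 and 103.7. Ckm, the muscle creatine kinase, was at 0.0320 FPKM in WT_AL and 8.46 in KO_AL, and none of the 8 was called with either SE. Tnnc2 was listed at 0 in WT_AL. The part of muscle RNA in the other differences was not tested.

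The same genotype contrast could be tested in the DR mice, whose libraries did not enter the AL test. KO_DR had 151 entries called higher than WT_DR (0.989% of 15262 tested) and 26 lower (0.17%), and with the smaller SE 2210 higher (14.5%) and 616 lower (4.04%). The dopamine genes had the opposite sign there. Slc6a3 had a log2 difference (KO_DR minus WT_DR) of 6.14 (SE 0.94), Chrna6 of 4.12 (SE 1.05) and Ret of 2.16 (SE 0.44), and all 3 were called higher. All 12 dopamine list genes tested in the DR mice except 1 were higher in KO_DR, with a median of 2.33, and 10 were called higher with the smaller SE. The striatal genes were lower in 15 of 16, with a median of -0.49, and 18 of 30 mitochondrial entries were lower, with a median of -1.31. Not every list reversed. Over all entries tested in the DR mice, 35.1% were lower in KO_DR and the median log2 difference was 0.23. Immediate early genes were higher in 23 of 32, with a median of 0.32, close to that of all entries. Of these 32, 9 were called higher and 3 lower with the smaller SE. Of 11 cortical genes, 5 were higher and 6 lower, with a median of -0.05. The 5 red blood cell genes were again higher, all called with the smaller SE, with a median of 1.80. Of the 162 entries called higher in the AL mice with the smaller SE, 149 were tested in the DR mice, where 60 were higher, 18 called so, and 48 were called lower. Of the 53 called lower, 44 were tested, 8 were lower, 1 of them called, and 24 were called higher. The genotype difference itself differed between diets for 24 entries in the positive direction (0.163% of 14691 tested) and 37 in the negative (0.252%), and with the smaller SE for 465 (3.17%) and 335 (2.28%). This interaction contains the AL contrast, so for genes chosen on that contrast it adds no independent support.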

How the data were processed

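Poly-A-selected RNA of 4 tissues was sequenced on the Ion Proton platform. Per the study's methods and the submitters' processing notes, the authors trimmed reads with cutadapt 1.5, dropped those under 54 bases, aligned them to GRCm38 and used Cuffdiff 2.2.1 with multi-read correction and geometric normalization. The deposited FPKM values are 1 pooled value per group with the bounds of a 95% interval, and no value per library or depth was used, so counting precision is unknown. Columns with values of other samples numbered 0.

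The SD of each value was taken as the upper arm of its interval divided by 2. Log2 ratios of FPKM, without a pseudocount, were tested by a two-sided Wald test (delta-method SE, normal reference, Benjamini-Hochberg adjustment over all tested entries, FDR 10%). The smaller SE divided each SD by the square root of the labelled libraries. Labels do not say more of the libraries than group and number. Entries needed status OK and an FPKM of at least 1 in one group, and entries at 0 in either group were not tested. Calculations used Python 3.11.15, numpy 2.4.6, pandas 2.3.3 and scipy 1.17.1, and the test was tried on simulated data.

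The comparison, gene lists and members were chosen with earlier results of these data known. Named were Irs1, ligands, receptors and adaptors of the pathway, called entries (the 15 per direction with the largest Wald statistic), the 12 per direction with the largest statistic at 1 FPKM or more in both groups, the top 3 and most abundant members of each list, and genes the study names. Others were chosen after their values were seen, among them Egr1, Egr4, Arc, Fos, Jun, Bdnf, Nr4a2, Nr4a3, Npy, Chat, Slc6a4, Slc6a5, Rln3, Alas2, Lgals1, Camk4 and the defining red cell and muscle markers. Alternatives were the smaller SE, an FDR of 5%, a t distribution, non-overlapping intervals, pseudocounts of 0.1 and 1, other filters on low values, centring on the median, leaving out joined entries and a 2-fold minimum. A floor on the SD (the median SD in percent of FPKM) was added after seeing the data. Transcript sequences and loci came from GENCODE M21 and promoters from RefSeq (GRCm38.p6).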

Additional observations from a re-analysis of the deposited data

Results flagged for a closer look

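Some genotype differences (KO minus WT, log2) in brain themselves differed between the diets, tested as the difference under DR minus that under AL at an FDR of 10%. The test contains the AL contrast on which many of these genes were named. Positive differences were found for monoamine and brainstem genes, namely Slc6a3 (11.83), Rln3 (11.78), Chrna6 (8.26), Tph2 (7.79), Slc6a5 (7.76), Slc18a2 (5.999), Ret (4.63), Ddc (4.41) and Th (4.19), and for Spp1 (3.77) and Akap12 (2.67).

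Negative differences were found for mitochondrial transcripts and their nuclear copies, namely mt-Nd3 (-6.79), Gm28438 (-6.64), Gm10925 (-6.63), mt-Rnr1 (-6.37), mt-Rnr2 (-5.50), mt-Nd5 (-5.33) and mt-Th (-3.26). They were also found for the early genes Nr4a1 (-2.88) and Junb (-2.49), for Fezf2 (-3.20), Igfbp6 (-3.06), Rpl37a (-4.30), Rpl37 (-3.52), Cox7a2 (-3.08), Naca (-2.87), Lgals1 (-6.17) and Lrrc17 (-6.68), and for the non-coding RNAs Rny3 (-4.29), Gm25452 (-2.73) and Gm24528 (-0.84). Gm25452 and Gm24528 are single snoRNA copies that cannot be told apart by sequence from others of their families. Gm22050, with the same sequence as Gm25452, gave a positive difference (1.10).

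The AL genotype difference in brain also differed from that in another tissue for 18 entries. These were 2 positive ones against liver, 1 positive and 1 negative against skeletal muscle, and 4 positive and 10 negative against white adipose tissue. Among the negative ones against white adipose tissue, Elovl6 gave -4.41 and Fzd10 gave -9.17. Brain minus white adipose tissue gave 6.12 for Lrrc17, 6.02 for Lgals1 and 5.9996 for Slc17a7, the vesicular glutamate transporter of cortical neurons. The brain difference of Slc17a7 alone was 0.87 and was not called with either SE, so its value here rests largely on the white adipose groups. Brain minus liver gave 0.40 for mt-Th, and brain minus skeletal muscle gave -3.31 for Gm8034. The SD of mt-Th in brain was only 0.77% of FPKM in KO_AL and 2.63% in WT_AL. Its call in brain was lost against the t distribution and with the SD floor.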

How the results depend on the processing

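No paired analysis was possible because the columns hold pooled group values that carry no replicate number. Leaving out a library was not run for the same reason. The cause of the changes below was not tested.

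For KO_AL against WT_AL, entries called higher (26) became 162 with the smaller SE, 0 against the t distribution, 58 by non-overlapping intervals and 3 with the SD floor. Entries called lower (5) became 53 with the smaller SE, 0 against the t distribution, 8 by intervals, 8 with a pseudocount of 0.1, 10 with a pseudocount of 1, 3 with 1 FPKM or more in both groups, 8 after centring on the median and 1 with the SD floor. The lowest adjusted p against the t distribution, with Benjamini-Hochberg adjustment, did not pass, and 37 entries were higher and 10 lower at an unadjusted p under 0.05.

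For KO_DR against WT_DR, entries called higher (151) became 2210 with the smaller SE, 93 at an FDR of 5%, 3 against the t distribution, 235 by intervals, 62 after centring and 19 with the SD floor. Those called lower (26) became 616, 17, 2, 63, 44 and 6 in the same order, and 43 with a pseudocount of 1. The interaction of genotype and diet (61) became 800 with the smaller SE and 2 against the t distribution. Entries that differed between brain and another tissue (18) became 422 with the smaller SE, 0 against the t distribution (23 for liver, 51 for muscle and 141 for white adipose tissue at an unadjusted p under 0.05), 29 with a pseudocount of 1, 10 with 5 FPKM or more in one group and 8 with 1 or more in both. The intervals and the SD floor were not run for these last 2 results.

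Of 105 genes examined one by one, 1 changed sign, Insr, whose log2 difference was -0.10 after centring. The t distribution took the call from 25 genes and the SD floor from 21, and the smaller SE added 49.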
